A study of Rattus norvegicus with 18 samples.

Results

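The Rab GTPases are small GTP-binding proteins that direct membrane traffic, and their transcripts were followed here in insulin-producing cells induced to make a misfolded proinsulin. The genes were chosen by name, as those whose symbol is Rab followed by a number. This gave 56 Rab genes of 14217 genes named by a probe set of their own, a probe set being the group of short oligonucleotides that measures a transcript on the array. Of the 56 genes, 46 were bright enough to be tested.

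The cells were clone #4S2, 1 clone of INS-1 rat insulinoma cells that carries doxycycline-inducible proinsulin C96Y-GFP and was sorted for its fluorescence after induction. In this mutant a cysteine of the A chain is replaced, so that a disulfide bond of proinsulin cannot form. Doxycycline at 2 μg/ml, or none, was given over 24 h, over 48 h or over 5 days, with 3 independent experiments per group, and total RNA was hybridized to 18 Affymetrix rat genome arrays. All 6 groups carried the transgene and the pTet-ON regulator. Cells exposed to doxycycline without the transgene were not analysed here, so on these arrays the effects of the drug and of the induced protein cannot be told apart. The paper states, without showing the data, that this dose changed neither Grp78 nor Chop in parental INS-1 cells.

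A Rab protein cycles between a GDP-bound form, held in the cytosol by a GDP dissociation inhibitor, and a GTP-bound form anchored in a membrane by its prenyl groups. Exchange factors load it with GTP, GTPase-activating proteins end the active state, and in between the Rab recruits effectors such as tethers, motors and coats. Each membrane carries its own Rabs, with Rab1 and Rab2 at the border of the endoplasmic reticulum (ER) and Golgi, Rab6 at the Golgi, Rab5 on early endosomes and Rab7 and Rab9 on late endosomes. In beta cells Rab3 and Rab27 proteins reside on insulin granules and take part in their docking and release.

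ER stress genes were raised with doxycycline at the earlier times. Of 12 ER chaperone and degradation genes, 7 rose at 24 h and all 12 rose at 48 h, with medians of 1.04 and 1.25 on the log2 scale. Of all probe sets 0.206% passed in either direction at 24 h and 3.52% at 48 h, by the test described below. Pairs were formed of the control and doxycycline arrays of the same experiment. At 5 days the libraries labelled experiment 1 ran opposite to the others for these genes, with medians of −1.49, 1.58 and 1.05 in experiments 1, 2 and 3. The library labelled doxycycline 5 days, experiment 2 had a GAPDH 3′ to 5′ signal ratio of 2.91, where the other arrays lay between 1.05 and 1.19. The 10 beta cell markers with a probe set were all above the signal filter. At 48 h 2 of them, Mafa and Pcsk2, fell, beside the 3.52% of all probe sets that passed in either direction. Their summed signal was 108039 to 119400 in the 48 h controls and 93849 to 106860 with doxycycline. Gcg, the only one of 4 other islet hormones above the filter, also fell at 48 h, with log2 ratios of −2.87, −2.44 and −2.82. Its ratios were −1.92, −1.09 and −0.92 at 24 h (adjusted p = 0.0924) and 4.10, −2.77 and −2.79 at 5 days. The 7 acinar and 5 immune and endothelial markers on the array were all below the filter, and of 7 fibroblast markers only Pdgfra and Thy1 were above it. These are bulk samples, in which fewer cells of a type and less RNA per cell cannot be told apart. With 3 experiments per group, p-values measure the spread between these experiments, and the number of arrays limits the precision.

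No Rab gene passed the test at any time. The test was limma's moderated test on paired log2 signals with Benjamini-Hochberg adjustment over 15521 probe sets, at an adjusted p under 0.05. The count was 0 of 46 Rab genes at 24 h, where 0.206% of all probe sets passed, 0 of 46 at 48 h, where 3.52% passed, and 0 of 46 at 5 days, where 0% passed. The smallest adjusted p among Rab genes was 0.150 for Rab3b at 24 h, 0.0686 for Rab9a at 48 h and 0.935 at 5 days. At an unadjusted p under 0.05 the count was 8 of 46 at 24 h, against 14.7% of all probe sets, and 13 of 46 at 48 h, against 24.7%. At 5 days it was 0 of 46, against 2.48%. The plain t-test named in the methods gave 5, 13 and 0 Rab genes at an unadjusted p under 0.05.

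**Figure D1:**
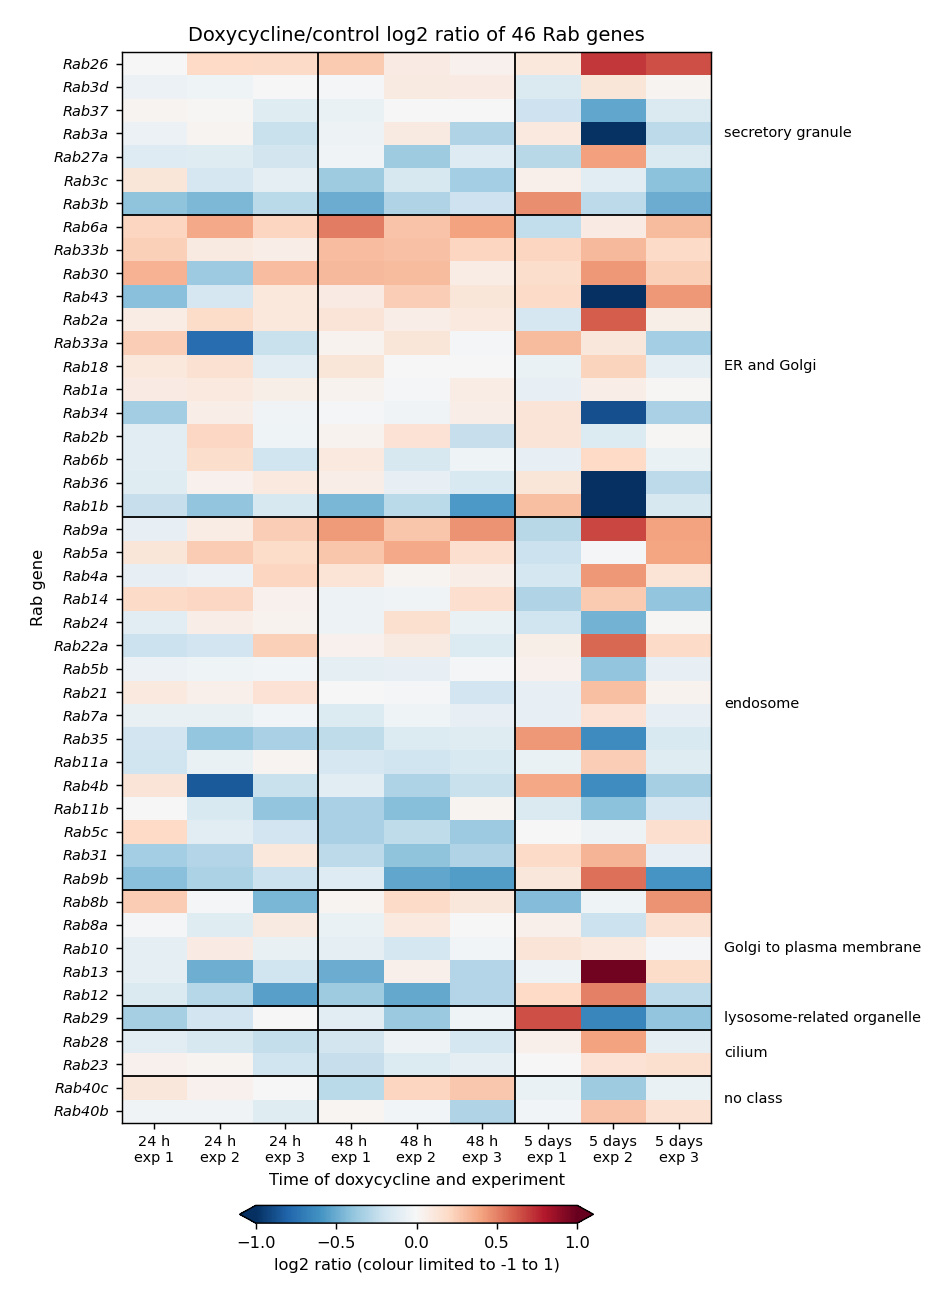
Log2 ratio of doxycycline to control for 46 Rab genes (vertical axis, grouped by the membrane they serve and ordered within a group by the 48 h mean) in the 9 experiments (horizontal axis, by time and experiment). Colour runs from −1 to 1 on the log2 scale, red above and blue below 0. Most cells at 24 h and 48 h are pale, and the column of 5 days, experiment 2 holds the strongest colours.

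The size of the Rab differences was close to that over all probe sets. The median absolute log2 ratio over the 46 genes was 0.091 at 24 h and 0.120 at 48 h, beside 0.095 and 0.134 over all probe sets tested. The 95% confidence interval of the ratio lay within 1.5-fold in either direction for 44 of 46 Rab genes at 24 h, against 90% of all probe sets, and for 42 at 48 h, against 80.1%. It lay within 2-fold for all 46 at both times, against 98.9% and 97.1%. At 5 days it lay within 2-fold for 40 of 46 Rab genes, against 79.4% of all probe sets. The median log2 ratio over the Rab genes was −0.04 at 24 h and −0.05 at 48 h, and over all probe sets −0.01 at both.

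The Rab genes differed in direction. At 24 h all 3 ratios were above 0 for 8 of 46 Rab genes, against 17.8% of all probe sets, and below 0 for 13, against 20.3%. At 48 h all 3 were above 0 for 10, against 22.8%, and below 0 for 18, against 25.4%. At 24 h the 3 doxycycline signals lay entirely above or below the 3 control signals for 7 of 46 Rab genes, against 8.75% of all probe sets. At 48 h they lay above for 5 of 46, against 11.3%, namely Rab2a, Rab5a, Rab6a, Rab9a and Rab33b. They lay below for 12 of 46, against 10.8%, namely Rab1b, Rab3b, Rab3c, Rab4b, Rab5c, Rab9b, Rab11a, Rab12, Rab23, Rab27a, Rab28 and Rab31.

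ER stress factors such as ATF6 and XBP1 bind short promoter motifs that contain CCAAT or CCACG, so the DNA before the start sites is shown for the 3 Rab genes with the widest difference in each direction at 48 h, except Rab1b. Each sequence is the 250 bases upstream of the RefSeq start site in the rat assembly GRCr8, printed 5′ to 3′ on the strand of the gene. Capitals mark CCAAT and CCACG in either orientation, so that CCAAT read backwards appears as ATTGG and CCACG as CGTGG. The first 3 lines are genes with higher signal at 48 h, the last 2 genes with lower signal.
Rab6a, chr1:164369783-164370032 (plus strand): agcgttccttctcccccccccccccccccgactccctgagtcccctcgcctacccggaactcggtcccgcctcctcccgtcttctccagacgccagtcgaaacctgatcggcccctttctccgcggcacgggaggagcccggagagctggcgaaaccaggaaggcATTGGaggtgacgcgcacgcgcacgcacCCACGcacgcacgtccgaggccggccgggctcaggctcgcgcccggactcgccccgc
Rab9a, chrX:31609839-31610088 (plus strand): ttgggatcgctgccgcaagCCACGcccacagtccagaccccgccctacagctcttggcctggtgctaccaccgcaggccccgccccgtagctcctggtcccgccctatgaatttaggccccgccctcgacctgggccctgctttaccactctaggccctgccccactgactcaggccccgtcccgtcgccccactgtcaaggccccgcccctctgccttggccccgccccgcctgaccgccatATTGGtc
Rab5a, chr9:6720877-6721126 (plus strand): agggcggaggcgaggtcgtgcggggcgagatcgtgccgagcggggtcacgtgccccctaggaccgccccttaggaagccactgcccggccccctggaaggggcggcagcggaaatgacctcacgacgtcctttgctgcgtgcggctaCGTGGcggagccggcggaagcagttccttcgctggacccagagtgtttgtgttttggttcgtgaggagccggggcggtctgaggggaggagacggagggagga
Rab9b, chrX:105023873-105024122 (minus strand): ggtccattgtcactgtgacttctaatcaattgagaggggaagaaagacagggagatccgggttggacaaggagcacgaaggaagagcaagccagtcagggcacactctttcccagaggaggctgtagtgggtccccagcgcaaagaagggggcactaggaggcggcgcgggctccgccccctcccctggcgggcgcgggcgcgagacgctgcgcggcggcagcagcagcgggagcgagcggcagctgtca
Rab12, chr9:113953617-113953866 (minus strand): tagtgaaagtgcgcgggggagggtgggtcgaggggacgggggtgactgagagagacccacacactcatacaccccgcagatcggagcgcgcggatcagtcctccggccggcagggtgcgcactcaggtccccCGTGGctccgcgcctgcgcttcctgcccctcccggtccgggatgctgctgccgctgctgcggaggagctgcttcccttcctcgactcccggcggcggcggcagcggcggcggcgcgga
Rab6a and Rab9a held both words, Rab5a and Rab12 held CCACG alone, and Rab9b held neither. Over the 45 Rab genes with a RefSeq promoter, CCAAT was present in 33.3%, beside 34.0% of all 33469 promoters. CCACG was present in 46.7% of the Rab promoters and in 27.2% of all, and both words in 17.8% and 8.86%. The ER stress element, which is CCAAT and CCACG in this order with 9 bases of any kind between them, was in 0 of 45 Rab promoters and in 0.066% of all. The ATF6 site TGACGTGG, which overlaps CCACG, was likewise in 0 of 45 and in 0.52% of all. The core ACGTGGC, which also overlaps CCACG, was in 4.44% of the Rab promoters, those of Rab5a and Rab20, and in 2.00% of all. The further ER stress element ERSE-II was in 0 of 45 and 0.042%, and the E box CACGTG in 3 of 45 and 5.59%. Both strands were searched, and a match of letters is a description, not a bound site.

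The ER and Golgi class held 14 Rab genes, of which 13 were tested and none passed. Its median log2 ratio was 0.02 at 24 h and 0.04 at 48 h, and the 48 h medians in experiments 1, 2 and 3 were 0.08, 0.06 and 0.07. Rab6a, which acts in transport within and out of the Golgi, had the widest positive 48 h difference of the Rab genes. Its normalized signal in experiments 1, 2 and 3 at 48 h was 5451, 6103 and 6103 in control cells and 7778, 7452 and 8045 with doxycycline. All 3 treated arrays lay above all 3 controls, by 0.40 ± 0.08 on the log2 scale (adjusted p = 0.0693). Here and below, SE is the moderated standard error of the limma fit. At 24 h its signal was 6446, 5897 and 6590.4 in control cells and 7466, 7679.8 and 7668 with doxycycline. The groups again did not overlap, and the mean log2 ratio was 0.27 ± 0.08 (SE, adjusted p = 0.225). Another Rab6a probe set had log2 ratios of 0.06, 0.17 and 0.28 at 48 h. Its neurally enriched paralog Rab6b had ratios of 0.09, −0.16 and −0.04, and the difference between the Rab6a and Rab6b log2 ratios at 48 h was 0.42, 0.45 and 0.44.

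Rab33b is a Golgi Rab that also binds the autophagy protein Atg16l1. Its 48 h signal was 837, 815 and 822 in control cells and 1039, 997 and 955 with doxycycline. Every treated array lay above every control, with a mean log2 ratio of 0.27 (95% confidence interval 0.09 to 0.46, adjusted p = 0.105). Its ratios at 24 h were 0.24, 0.09 and 0.07 and those at 5 days 0.22, 0.32 and 0.19. The 5-day experiment 1 value carries the labels of the pair that ran opposite for the chaperones.

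The paralogs Rab1a and Rab1b, both needed for transport from the ER to the Golgi, had unlike ratios. Rab1b signal at 48 h was 3612, 2759 and 2986 in control cells and 2638, 2294 and 2006 with doxycycline. The groups did not overlap, and the mean log2 ratio was −0.43 (95% confidence interval −0.66 to −0.20, adjusted p = 0.0733). At 24 h the Rab1b signal was 3456, 3491 and 2711 in control cells and 2946, 2659.7 and 2423 with doxycycline, and here 1 control array lay within the treated range. All 4 tested Rab1b probe sets had mean ratios below 0 at both times. Rab1a had log2 ratios of 0.08, 0.10 and 0.06 at 24 h and of 0.03, −0.02 and 0.08 at 48 h. The difference between the Rab1a and Rab1b log2 ratios was 0.49, 0.25 and 0.65 at 48 h. A further 3 probe sets match both genes and were not used. Rab2a, which works beside Rab1 in the same pathway, had ratios of 0.13, 0.06 and 0.10 at 48 h.

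The secretory granule class held 8 Rab genes, of which 7 were tested and none passed. Its median log2 ratio was −0.05 at 24 h and −0.09 at 48 h, where the medians in experiments 1, 2 and 3 were −0.05, 0.01 and −0.13. The summed beta cell marker signal was also lower at 48 h, as given above, and its part in the granule Rab values was not tested. The 4 Rab3 proteins bind granule membranes in their GTP form, and Rab3a is the best known of them. Rab3b had the widest negative difference of all Rab genes at 24 h, with signals of 2308, 1888 and 1695 in control cells and 1745, 1386 and 1404 with doxycycline. The lowest control lay below the highest treated array, yet each treated array lay below its own control. The mean log2 ratio was −0.37 (95% confidence interval −0.56 to −0.18, adjusted p = 0.150). At 48 h the signals were 1904, 1619 and 1616 in control cells and 1350.0, 1312 and 1397 with doxycycline, without overlap, for a mean of −0.34 (95% confidence interval −0.56 to −0.11, adjusted p = 0.105).

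Rab3c at 48 h had signals of 1684, 1423 and 1652 in control cells and 1314, 1270.5 and 1308 with doxycycline. The groups did not overlap and the mean log2 ratio was −0.29 (95% confidence interval −0.49 to −0.08, adjusted p = 0.116), and the 24 h ratios were 0.12, −0.17 and −0.09 (48 h less 24 h, adjusted p = 0.752). Rab3a signals at 48 h were 1985, 1803 and 2092 in control cells and 1914, 1920.2 and 1700.4 with doxycycline. These groups overlapped, and the log2 ratio of −0.09 had an interval of −0.34 to 0.17. Rab3d, also a Rab of regulated secretion, had signals of 4539.7, 4391 and 4738 in control cells and 4496, 4661 and 5023 with doxycycline at 48 h. Its interval of −0.13 to 0.24 kept it within 1.5-fold in either direction. The difference between the Rab3b and Rab3d log2 ratios at 48 h was −0.48, −0.39 and −0.29.

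Rab27a docks insulin granules at the plasma membrane through the effector granuphilin, the product of Sytl4. Its 24 h signal was 686, 851 and 892 in control cells and 627, 783 and 785 with doxycycline. Each experiment gave a small negative log2 ratio, of −0.13, −0.12 and −0.18, and the groups overlapped. The other tested Rab27a probe sets had 24 h means of 0.06 and 0.04, and the mean over the probe sets was −0.017. At 48 h the signal was 800.1, 853 and 816 in control cells and 779.9, 666 and 747 with doxycycline, without overlap, and the mean of −0.17 had an interval of −0.41 to 0.06. Without experiment 2 the 48 h mean was −0.083. At 48 h the other probe sets gave wider differences, with ratios of −0.41, −0.30 and −0.47 (adjusted p = 0.0661) and of −0.37, −0.18 and −0.22 (adjusted p = 0.133). Rab37, also found on secretory granules, had 48 h signals of 3266, 3338 and 3551 in control cells and 3120.1, 3352 and 3565 with doxycycline. The pairs nearly coincided, and the interval of the log2 ratio was −0.20 to 0.16. Rab26, another Rab of secretory granules, had ratios of −0.01, 0.20 and 0.19 at 24 h and of 0.27, 0.08 and 0.04 at 48 h. Rab27b, the last member of the class, was below the signal filter.

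**Figure D2:**
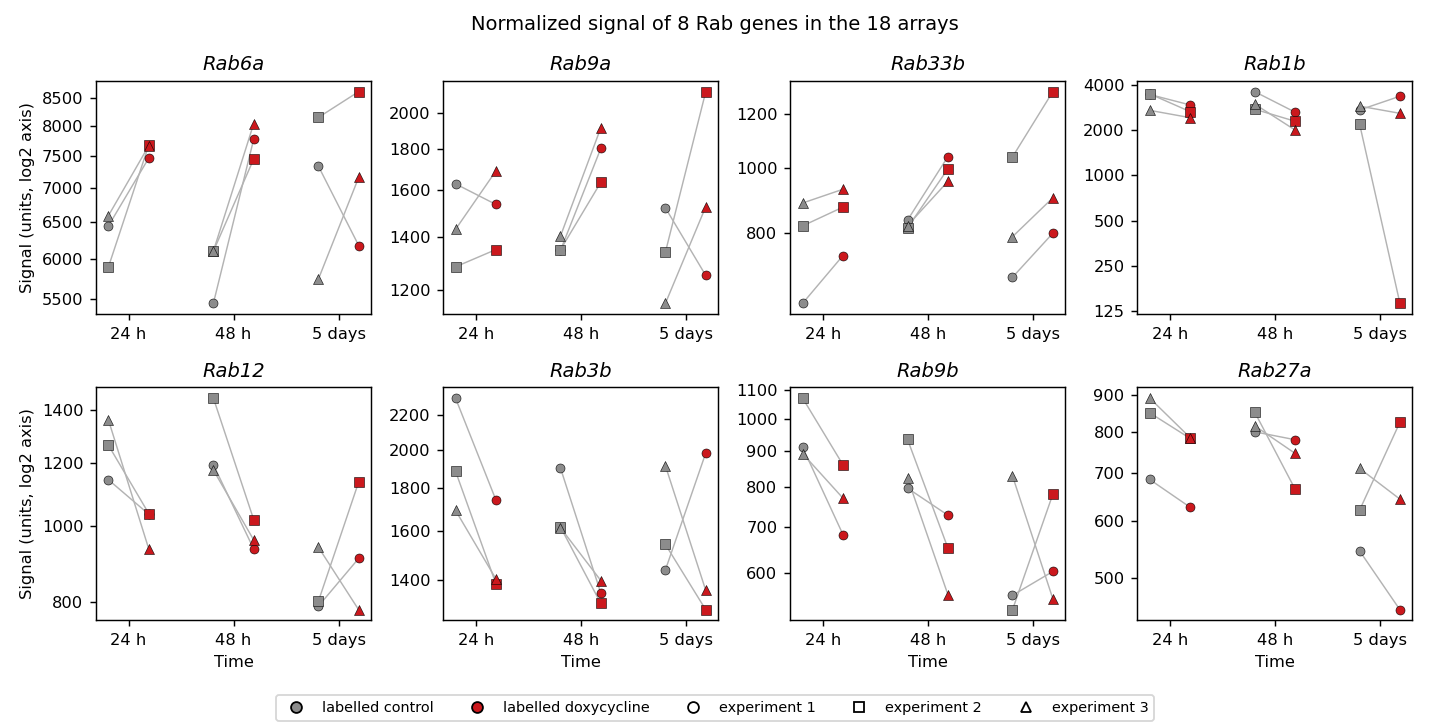
Normalized signal (vertical axis, log2 scale) of 8 Rab genes on the 18 arrays, by time (horizontal axis). Grey points are control and red points doxycycline arrays, and a line joins the arrays of an experiment. At 48 h every line slopes up for Rab6a, Rab9a and Rab33b and down for Rab1b, Rab12, Rab3b, Rab9b and Rab27a.

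The endosomal class was the largest, with 21 Rab genes, of which 16 were tested and none passed. Its median log2 ratio was −0.05 at 24 h and −0.08 at 48 h, and the 48 h medians in experiments 1, 2 and 3 were −0.10, −0.06 and −0.10. Rab9a, which returns mannose 6-phosphate receptors from late endosomes to the trans-Golgi network, had the smallest adjusted p of any Rab gene at 48 h. Its 48 h signal was 1346, 1348 and 1402 in control cells and 1805, 1637 and 1915 with doxycycline. The treated arrays stood clear of the controls, with a mean log2 ratio of 0.38 (95% confidence interval 0.19 to 0.58, adjusted p = 0.0686). At 24 h the Rab9a groups overlapped, at 1629.9, 1284 and 1429 in control cells and 1536, 1349 and 1691 with doxycycline.

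Its paralog Rab9b ran the other way. Rab9b signal at 48 h was 796, 935 and 823 in control cells and 728, 653 and 559 with doxycycline. All treated arrays lay below all controls, with a mean log2 ratio of −0.40 (95% confidence interval −0.69 to −0.12, adjusted p = 0.116), and at 24 h the ratios were already −0.42, −0.32 and −0.21. The difference between the Rab9a and Rab9b log2 ratios was 0.33, 0.39 and 0.46 at 24 h and 0.55, 0.80 and 1.01 at 48 h. The 3 Rab5 genes, which drive the fusion of early endosomes, also parted. Rab5a signal at 48 h was 2011, 1707 and 1937 in control cells and 2439.7, 2225 and 2174 with doxycycline. Rab5a groups did not overlap at 48 h or at 24 h, with mean log2 ratios of 0.28 (adjusted p = 0.124) and 0.19 (adjusted p = 0.330). Rab5c signal at 48 h was 1269.6, 1386 and 1304 in control cells and 1016, 1160.0 and 1012 after induction, without overlap (mean −0.31, adjusted p = 0.0847).

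Other endosomal Rabs also parted by gene. Rab31, which acts between the trans-Golgi network and endosomes, had 48 h signals of 455, 407 and 387 in control cells and 379, 308 and 314 with doxycycline. The groups did not overlap (mean −0.32, adjusted p = 0.0850). Rab35, a Rab of recycling endosomes, had 24 h signals of 1055, 1355 and 1185 in control cells and 925, 1034 and 949 with doxycycline, also without overlap (mean −0.30, adjusted p = 0.201). The late endosomal Rab7a had 48 h ratios of −0.14, −0.04 and −0.08. The recycling endosomal Rab11a had 48 h ratios of −0.17, −0.20 and −0.15, without overlap of the groups. For Rab14, which acts between Golgi and endosomes, the 4 tested probe sets disagreed in sign. The one used for the gene gave 24 h ratios of 0.19, 0.20 and 0.05, whereas the others gave −0.20, −0.47 and −0.19, then −0.14, −0.12 and −0.12, and −0.08, −0.08 and −0.07. No direction is therefore given for Rab14.

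Of the 5 Rabs of transport from Golgi to plasma membrane, all were tested and none passed. Rab12, a relative of Rab8 and Rab10 known for the turnover of the transferrin receptor, had 48 h signals of 1194, 1450.4 and 1176 in control cells and 934, 1017 and 959 with doxycycline. The treated arrays all lay below the controls, by −0.39 (95% confidence interval −0.59 to −0.18, adjusted p = 0.0733). At 24 h they lay below them too, at 1143, 1264 and 1361 against 1034, 1036 and 934, for ratios of −0.15, −0.29 and −0.54. Another Rab12 probe set gave 0.02, −0.55 and −0.53 at 24 h and −0.14, −0.79 and −0.49 at 48 h. Rab23 and Rab28 of the cilium had a median of −0.14 at 48 h, with both below the controls on every array. Rab29, linked to lysosomes, was the only tested gene of the lysosome-related class.

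**Figure D3:**
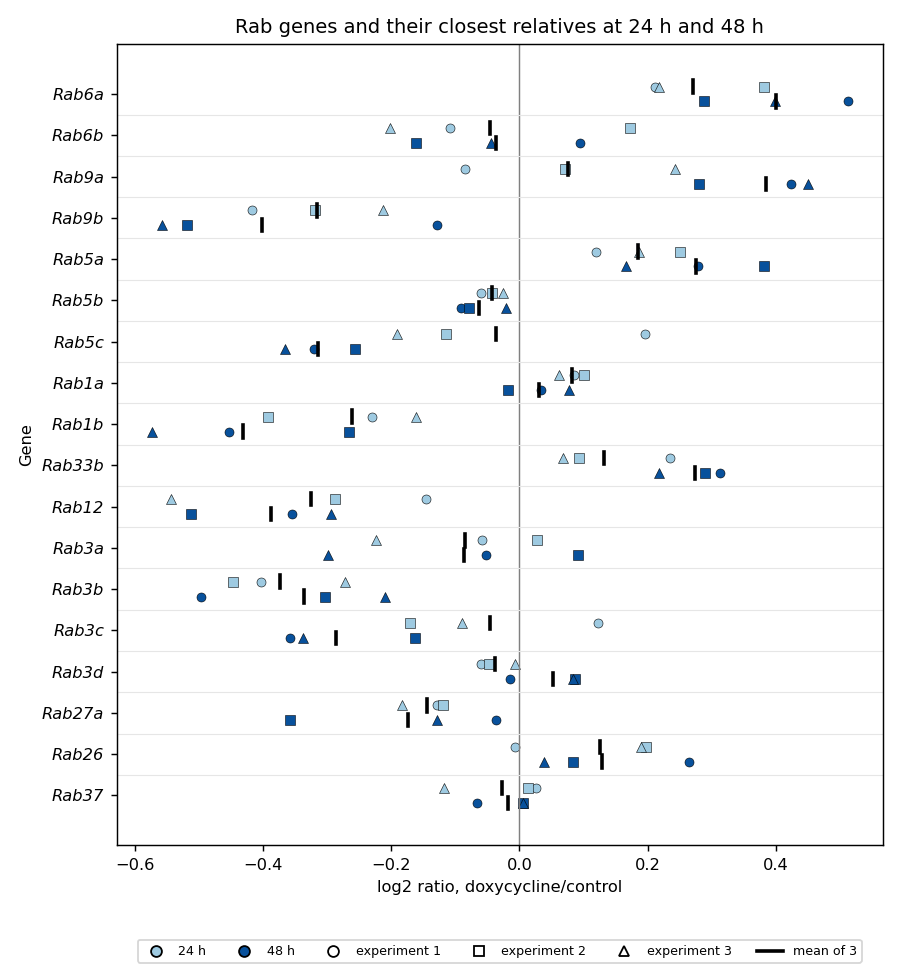
Log2 ratio of doxycycline to control (horizontal axis) of 18 Rab genes (vertical axis). Light blue marks 24 h and dark blue 48 h. The shape of a point gives its experiment (circle for 1, square for 2, triangle for 3). Each mean is drawn as a black bar. Rab9a and Rab9b, Rab1a and Rab1b, Rab5a and Rab5c, and Rab3d and Rab3b have means on different sides of 0 at 48 h.

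Across 18 pairs of paralogs, the difference in log2 ratio had the same sign in all 3 experiments for 8 pairs at 24 h, 12 at 48 h and 2 at 5 days. The pairs overlap, since each Rab3 and Rab5 gene enters several of them. No share was computed for pairs of other genes, so these counts have nothing to be set against. These within-family differences were computed after the values had been seen and are given without a test. Signals of different probe sets cannot be set against each other, so only ratios were compared. The widest at 48 h was Rab9a less Rab9b at 0.79, followed by Rab5a less Rab5c at 0.59, Rab1a less Rab1b at 0.46 and Rab6a less Rab6b at 0.44.

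A fit of the 12 arrays of 24 h and 48 h together, which shares 1 estimate of spread, gave more calls. In it 7 of 46 Rab genes passed at 48 h and 0 at 24 h, where 1.38% of all probe sets did. The 3 that passed upward at 48 h, against 5.64% of all probe sets, were Rab6a (adjusted p = 0.0205), Rab9a (0.0306) and Rab33b (0.0452). The 4 that passed downward, against 4.73%, were Rab1b (0.0234), Rab3b (0.0405), Rab12 (0.0418) and Rab9b (0.0456). The mean log2 ratios are those given above, since only the spread differed. The control arrays of 24 h, experiment 2 and 48 h, experiment 1 entered this fit as separate cultures, and they correlated at 0.990, the highest of 153 array pairs. The doxycycline arrays of the same experiments correlated at 0.986. The experiment 3 arrays of 24 h and 48 h correlated at 0.988 for control and 0.987 for doxycycline. Pairs within a time reached 0.989. Whether the cultures of the different times were independent was not tested. Adding the 5-day arrays to the fit left 0 Rab genes passing at 48 h, with a smallest adjusted p of 0.350.

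The times were then set side by side. The mean had the same sign at 24 h and 48 h for 36 of 46 Rab genes, against 70.3% of all probe sets. All 6 ratios were above 0 for 4 genes, Rab2a, Rab5a, Rab6a and Rab33b, against 10.1%. They were below 0 for 9 genes, against 10.7%, namely Rab1b, Rab3b, Rab5b, Rab7a, Rab9b, Rab12, Rab27a, Rab28 and Rab35. The test of 48 h less 24 h called 0 Rab genes and 0% of all probe sets, with a smallest adjusted p of 0.735 among Rab genes. At an unadjusted p under 0.05 it gave 1 Rab gene, Rab9a, whose ratio was 0.31 higher at 48 h (95% confidence interval 0.04 to 0.58), against 6.67% of all probe sets.

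At 5 days the Rab ratios spread widely. The 3 ratios shared a sign for 7 of 46 Rab genes, against 23.4% of all probe sets, and the groups did not overlap for 1 gene, Rab26, which was higher, against 3.73% higher in this sense of all probe sets. These counts rest on the labels of the experiment 1 pair. With them exchanged, 20 of 46 Rab genes shared a sign, against 32.7% of all probe sets. None of the 7 could be among them, since the exchange turns the sign of the experiment 1 ratio. Rab26 signals were 328, 225 and 277 in control cells and 354, 368 and 434 with doxycycline, for a mean log2 ratio of 0.49 (95% confidence interval −0.03 to 1.00, adjusted p = 0.935). The other genes above 0 in all experiments were Rab22a at 0.06, 0.58 and 0.19 (mean 0.27, or 0.010 with its probe sets averaged and 0.12 without experiment 2), Rab30 at 0.18, 0.43 and 0.24, and Rab33b. Those below 0 were Rab37 at −0.21, −0.52 and −0.14, Rab11b at −0.14, −0.41 and −0.17, and Rab40c at −0.07, −0.35 and −0.06. Centring each array on its median in place of quantile normalization moved the median over all probe sets by 0.22 at 5 days and turned these last 3 above 0, at 0.02, 0.07 and 0.04. With it the median of all probe sets was 0.24 and that of the Rab genes 0.26.

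The library with the raised GAPDH ratio also carried the widest Rab values. Rab1b signal at 5 days was 2726, 2201 and 2892 in control cells and 3365, 141 and 2590.0 with doxycycline, where the low value is that of experiment 2. In that pair the log2 ratios of probe sets of the same Rab gene differed by a median of 0.744 over the 19 genes with several tested probe sets, and by up to 5.18 for Rab5b. In the other 8 pairs the median range was 0.131 to 0.215. Over all 2469 genes with several tested probe sets the median was 0.792 in that pair and 0.175 to 0.247 in the others. The wide range was thus not particular to the Rab genes. The part of RNA quality in these values was not tested.

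**Figure D4:**
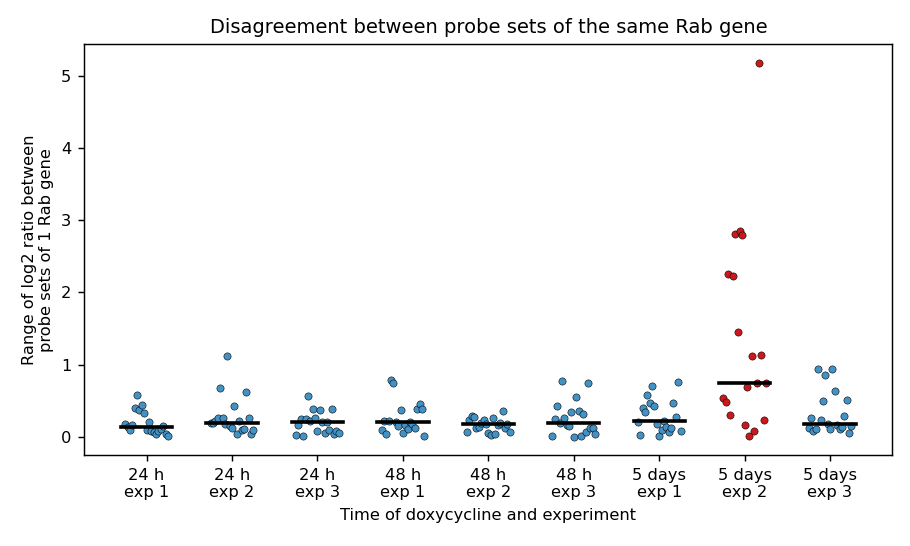
Range of the log2 ratio between probe sets of the same Rab gene (vertical axis) in each of the 9 experiments (horizontal axis), with 1 point for each of 19 genes and the median marked. The 5-day pair of experiment 2, in red, has a median of 0.744, above 0.131 to 0.215 in the others. Over all 2469 genes with several tested probe sets, not drawn, the median was 0.792 in that pair.

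With the labels of the 5-day experiment 1 pair exchanged, an alternative added after the data were seen, the fit of all 18 arrays called 1 Rab gene, Rab29, against 2.74% of all probe sets. Its mean log2 ratio was then −0.56 (adjusted p = 0.0303), and with the labels as deposited the ratios were 0.64, −0.65 and −0.39. The 5-day arrays alone with the same exchange gave 0 Rab genes.

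Genes that work with the Rabs were tested in lists. These held 5 tested prenylation and GDP dissociation inhibitor genes, 29 exchange factors and 25 GTPase-activating proteins. They also held 5 tested granule effectors, 10 effectors of ER and Golgi Rabs and 17 endosomal effectors. Over all these lists 3 genes passed, Sytl4, Uso1 and Golgb1, beside 0.206% of all probe sets at 24 h and 3.52% at 48 h. Sytl4, which encodes the Rab27a and Rab3 effector granuphilin, fell at both times. Its signal was 1672, 3216 and 3391 in control cells and 858, 1896 and 1943 with doxycycline at 24 h, for a mean log2 ratio of −0.84 ± 0.08 (SE, adjusted p = 0.0439). At 48 h it was 3177, 2981 and 3478 in control cells and 1003, 995 and 1274 with doxycycline, without overlap, for a mean of −1.57 (adjusted p = 0.00669). The 48 h Sytl4 ratios were −1.66, −1.58 and −1.45, beside −0.04, −0.36 and −0.13 for Rab27a and −0.05, 0.09 and −0.30 for Rab3a. It was the only one of 5 tested granule effectors, of 15 listed, to pass at either time, beside 0.206% of all probe sets at 24 h and 3.52% at 48 h. Rph3al, the Rab effector Noc2, had 48 h ratios of 0.20, 0.07 and 0.08.

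Of 10 tested effectors of ER and Golgi Rabs, 2 rose at 48 h, beside 3.52% of all probe sets, and none passed at 24 h, beside 0.206%. Uso1, the Rab1 effector p115 that tethers ER-derived vesicles, had 48 h signals of 2783, 2758 and 2552 in control cells and 4011, 3742 and 3912 with doxycycline. The groups stood well apart, with log2 ratios of 0.53, 0.44 and 0.62 (adjusted p = 0.0384). Golgb1, the Golgi tether giantin, had signals of 481, 537 and 572 in control cells and 773, 860.4 and 891 with doxycycline. Its ratios of 0.69, 0.68 and 0.64 were the closest to each other of the 3 genes (adjusted p = 0.0233). The median over the 10 was 0.17, beside 0.04 over the ER and Golgi Rabs themselves.

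The proteins that switch or carry Rabs did not pass. None of 5 prenylation and GDP dissociation inhibitor genes, 29 exchange factors, 25 GTPase-activating proteins and 17 endosomal effectors passed at 24 h or 48 h. Among all probe sets only 0.206% passed at 24 h and 3.52% at 48 h. Gdi2, which extracts GDP-bound Rabs from membranes, had mean log2 ratios of −0.01 at 24 h and 0.02 at 48 h. The medians at 48 h were −0.02, 0.02, −0.04 and 0.04 in the order given.

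**Figure D5:**
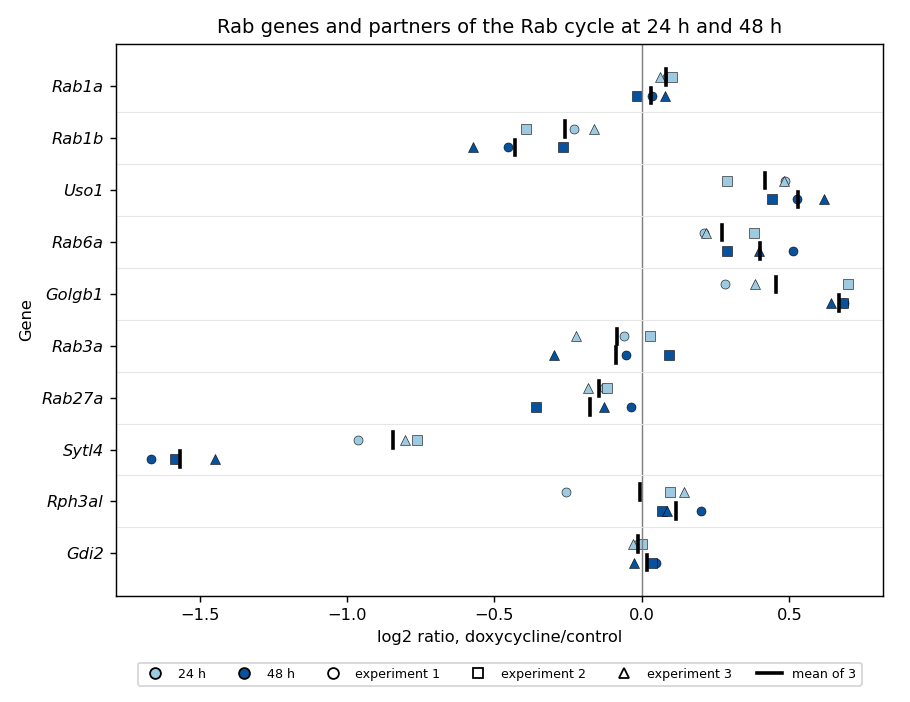
Log2 ratio of doxycycline to control (horizontal axis) of 5 partner genes beside Rab1a, Rab1b, Rab6a, Rab3a and Rab27a (vertical axis). Light blue marks 24 h and dark blue 48 h. Circles, squares and triangles stand for experiments 1, 2 and 3, and a black bar for the mean. Sytl4 lies far to the left of the granule Rabs. At 48 h the means of Uso1 and Golgb1 lie to the right of those of Rab1a and Rab6a.

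The Rab genes also differed in how steady they were without doxycycline. Over the 9 control arrays the ratio of the highest to the lowest signal of a tested Rab gene ranged from 1.06 for Rab1a to 2.49 for Rab4b, with a median of 1.57. The 10 Rab genes below the filter were Rab7b, Rab15, Rab17, Rab19, Rab20, Rab25, Rab27b, Rab32, Rab38 and Rab39a. Their mean signals were 10.7 to 109.6, below the filter at 121.5, and no comparison was made for them.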

How the data were processed

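Total RNA of clone #4S2 was measured on 18 arrays, 3 for each of 6 groups. The deposited values are the linear signal intensities of 31099 probe sets, which the authors had scaled; after control probe sets were left out the trimmed mean (2% at each end) was 497.7 to 498.9. Neither the summary program nor its correction for background is named in the labels or methods at hand, and arrays carry no depth.

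Here 57 control probe sets were left out, intensities were quantile normalized, floored at the 10th percentile (5.99) and log2 transformed. Tests covered the 15521 brighter probe sets, whose mean log2 signal reached its 50th percentile (a signal of 121.5). Genes were named from the platform annotation: 20826 probe sets had 1 gene and 436 several, and 20758 of the former matched RefSeq (GRCr8). The brightest single-gene probe set stood for a gene, and 97 covered the Rab genes, 73 of them tested.

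Each time was fitted alone with limma 3.58.1 (R 4.3.3), with experiments as blocks and Benjamini-Hochberg adjustment at 0.05. Replicate numbers in the labels pair the arrays of an independent experiment, and deviations of same-numbered arrays correlated at 0.109 to 0.667. The test was checked on simulated data. Alternatives changed the scaling, floor, filter, gene summary, block, arrays fitted and test. Named Rab genes were the granule class, those past the threshold, the 3 widest per time and direction with 3 ratios of the same sign, and those whose probe sets disagreed. Rab1a, Rab2a, Rab7a, Rab9a at 24 h, Rab11a, Rab29, Rab31, Rab33b, Rab35, Rab5c and Rab6b were added after their values were seen. The members and lists were chosen with earlier results of these data known.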

Additional observations from a re-analysis of the deposited data

Results flagged for a closer look

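For 2 Rab genes the 3 experiments went one way at one time and the opposite way at another. Rab21, an endosomal Rab, had a mean log2 ratio of 0.0989 at 24 h (0.10, 0.05 and 0.15 in experiments 1, 2 and 3) and of −0.0702 at 48 h, with all 3 ratios below 0. The test of the difference between these times gave an adjusted p of 0.783 (limma). Rab40c, which recruits a ubiquitin ligase, had a mean log2 ratio of 0.0557 at 24 h and of −0.161 at 5 days, and this difference was not tested.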

How the results depend on the processing

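The count of Rab genes called stayed at 0 at 24 h and in the test of 48 h less 24 h under each alternative run. It was 7 at 48 h in the fit of 12 arrays and 1 at 5 days in the fit of 18 arrays with exchanged labels, and 0 otherwise. Over all probe sets, the 32 calls at 24 h became 214 with 12 arrays and 72 with median centring, and 0 with 18 arrays, no filter, the filter at the 25th percentile, the methods' t-test or any experiment left out. The 546 calls at 48 h became 1610 with 12 arrays, 162 with the t-test, and 0 with 18 arrays, no filter or the filter at the 25th percentile. Leaving out an experiment gave 0 to 36, with 0 without experiment 1, 36 without experiment 2 and 23 without experiment 3. The 0 calls at 5 days became 425 with 18 arrays and exchanged labels. Without the replicate block, the count was 0 at 24 h and 275 at 48 h, with 0 Rab genes at either. The causes of these shifts were not tested.

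Medians of the ER and Golgi class at 48 h became 0.018 on the deposited scale and 0.029 to 0.077 with an experiment left out, and at 24 h −0.0069 to 0.032. At 5 days this class gave −0.042 on the deposited scale. The endosomal median at 48 h was −0.12 with probe sets averaged and −0.10 to −0.083 with an experiment left out. The granule median was −0.098 to −0.024 at 24 h and −0.26 to −0.0088 at 5 days with an experiment left out. Median centring at 5 days gave 0.21 for ER and Golgi, 0.31 for endosomal and 0.19 for granule Rabs.

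Directions turned with median centring at 5 days for Rab3b (0.19), Rab3c (0.13), Rab11b (0.075), Rab27a (0.23), Rab37 (0.022) and Rab40c (0.036), and at 48 h for Rab37 (0.0062). Rab14 at 24 h was −0.086 with probe sets averaged, and Rab27a at 5 days was 0.18 with exchanged labels. With an experiment left out, the range crossed 0 at 24 h for Rab3c (−0.13 to 0.016) and Rab37 (−0.053 to 0.019), at 48 h for Rab3a (−0.18 to 0.019) and Rab37 (−0.030 to 0.0056), and at 5 days for Rab27a (−0.21 to 0.13), Rab3b (−0.38 to 0.10) and Rab3d (−0.058 to 0.074). Why these turned was not tested. Rab3b, Rab5a, Rab6a, Rab9b and Rab12 at 24 h and 48 h, and Rab1b and Rab9a at 48 h, kept their direction under each alternative run. The main test of the difference between times was itself made on the 12 arrays of 24 h and 48 h. The t-test and exchanged labels were not run for it.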

Other observations

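The probe set used for Rab14 fell into separate ranges over the arrays without regard to doxycycline. Its signal was 7496 to 10732 in 8 arrays, both arrays of 24 h experiment 3, 48 h experiments 2 and 3 and 5 days experiment 3, and 4534 to 6269 in the other 10. The probe set used for Rab5b had signals of 2765 to 3058 in those 8 arrays and 1204 to 2326 in the other 10. The other tested probe sets of Rab14 and Rab5b were not divided in this way. The GAPDH 3′ to 5′ signal ratio was 1.11 to 1.19 in those 8 arrays. In the other 10 it was 1.05 to 1.10, apart from 2.91 in doxycycline 5 days, experiment 2. In the order in which the samples are listed, those 8 arrays come last and the other 10 first. A link between this grouping of the arrays and the Rab signals was not tested.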
